A study of Mus musculus with 6 samples.

Results

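The genes described here are the epidermal growth factor (EGF) receptors, their ligands and their inhibitors in mouse embryonic fibroblasts (MEFs): the receptors Egfr, Erbb2 and Erbb3, the ligands Ereg, Areg, Hbegf, Tgfa and Nrg1, and the inhibitors Errfi1 and Lrig1. They were found by mapping the Ensembl identifiers of the deposited table through the GENCODE mouse annotation, which gave 11 rows for these 10 genes among 56953 genes. The second row named Nrg1, ENSMUSG00000118541.2, lies wholly inside the first and was listed at 0 in every library, so 10 genes were described. Bulk RNA sequencing of poly-A RNA was compared between 3 libraries labelled WT and 3 labelled GαqKO, each given in the study as a biological replicate. The MEFs came from another laboratory and were grown in DMEM with 10% fetal bovine serum (FBS). The text calls the knockout cells GαqKO, and the methods describe them as lacking Gαq and Gα11, the alpha subunits of the Gq class of heterotrimeric G proteins. The number of embryos or clones behind each genotype is not given in the sources used here, so the p-values measure the spread between these libraries.

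EGF family receptors are tyrosine kinases that pair when a ligand binds and then signal through the RAS-ERK and PI3-kinase pathways. Ereg, Areg, Hbegf and Tgfa bind EGFR, Hbegf and Ereg also bind ERBB4, and Nrg1 binds ERBB3 and ERBB4, while ERBB2 has no known ligand and acts as a partner of the others. The ligands are made as membrane-bound precursors and are released by cell-surface proteases, chiefly of the ADAM family. Errfi1 (also called Mig6) binds the kinase domain of EGFR, and Lrig1 promotes the removal of the receptors from the cell surface.

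Each library held between 11392429 and 11483486 normalized counts, and the reads recovered for 5 of the 6 libraries ran from 9853000 to 12229175. Gnaq, the gene of Gαq, was not lower in the libraries labelled GαqKO. Its mean was 1691 ± 48.5 in WT and 1926 ± 36 in GαqKO (SD, n = 3, limma adjusted p = 0.00212), and a count per gene does not show which exons the reads came from. Gna11, the gene of Gα11, went from 2148 ± 29 to 451.6 ± 28.7 (limma adjusted p = 9.16e-13). The Y-linked genes Ddx3y, Eif2s3y, Kdm5d and Uty had WT means between 295.5 and 1197 and were listed at 0 in every GαqKO library, so genotype and the source of the cells cannot be told apart in any comparison here. Of 10 fibroblast markers 9 were tested, and 5 were higher and 4 lower in GαqKO at a limma adjusted p under 0.05. Of all genes tested, 31.8% were higher and 34.1% lower. Col1a1 had means of 16671 in WT and 5774 in GαqKO, Col1a2 of 13451 and 10455, Col3a1 of 2710 and 2393, and Vim of 41785 and 33508, all lower but abundant in both. Pdgfra had means of 19.58 and 2320, Dcn of 32.05 and 1663, Thy1 of 0.6961 and 64.89, S100a4 of 169.8 and 517.8, and Pdgfrb of 892.2 and 1046, all higher, and Fap was at 1.9 or less in every library.

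All 10 genes differed between the genotypes at a limma adjusted p under 0.05, with 4 higher and 6 lower in GαqKO. Over all 14096 genes tested, 65.8% passed the same test, 31.8% higher and 34.1% lower, so passing it does not set these genes apart. With a log2 fold change over 1 or under -1 required as well, Ereg and Areg were higher and Erbb3 and Tgfa were lower, that is 2 and 2 of 10, against 10.2% higher and 10.5% lower of all genes. The WT and GαqKO libraries did not overlap for any of the 10 genes, and this held for 69.6% of all genes tested. The 3 receptors were all lower, the ligands were divided into 3 higher and 2 lower, and the inhibitors into 1 and 1. The median log2 fold change of the 10 genes was -0.20, against -0.01 over all genes. Fold changes are GαqKO minus WT on the scale of log2(normalized count + 1), where the added 1 shrinks the fold of low genes.

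**Figure D1:**
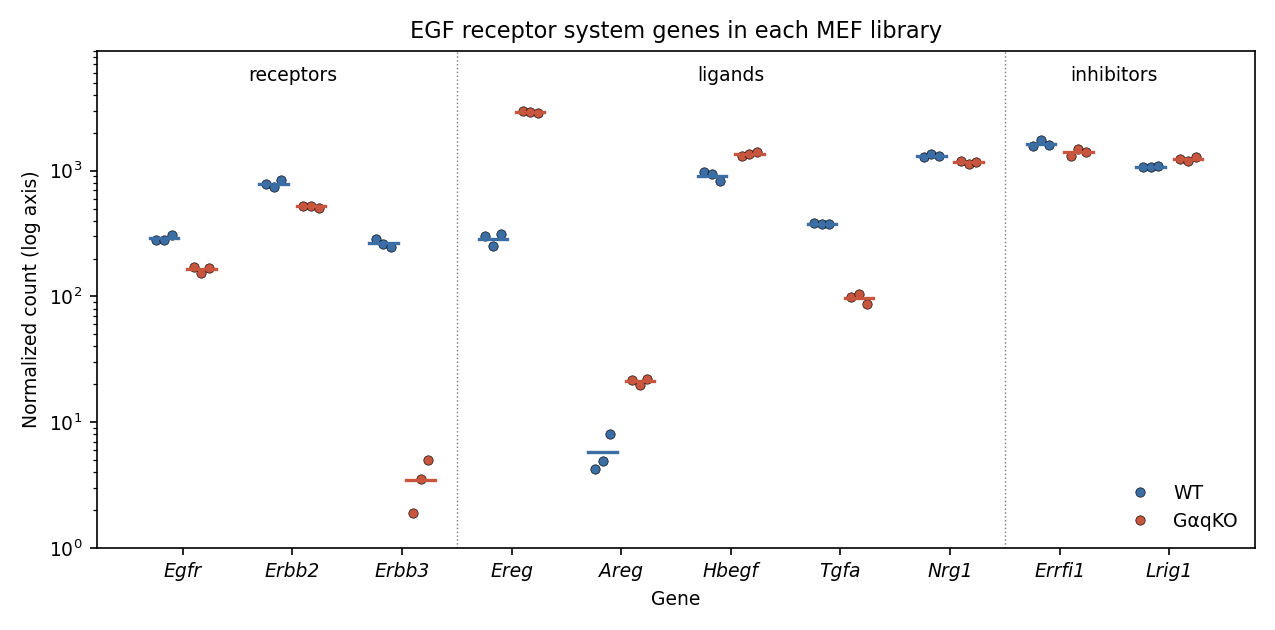
Normalized counts (log axis) of the 10 EGF receptor system genes in the 3 WT and 3 GαqKO libraries, with each point a library and each bar a group mean. Ereg sits between 250.6 and 311.5 in WT and between 2858.0 and 2964.5 in GαqKO, while Erbb3 sits between 248.4 and 284.0 in WT and at 5.0 or less in GαqKO.

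Among the receptors, Erbb3 lost nearly all of its signal in GαqKO. ERBB3 has little kinase activity of its own and, when paired with ERBB2, carries neuregulin signals to PI3-kinase. Its gene (ENSMUSG00000018166.9, GRCm39 chr10:128403392-128425811, reverse strand) had normalized counts of 284.0, 259.4 and 248.4 in WT replicates 1 to 3 and of 1.9, 3.5 and 5.0 in GαqKO replicates 1 to 3. The lowest WT library was thus far above the highest GαqKO library, and Erbb3 entered the test only through its WT values. The means were 263.9 ± 18.3 and 3.461 ± 1.58 (SD, n = 3), and the log2 fold change was -5.95 (SE 0.280, limma adjusted p = 3.70e-10). Because so few reads were left in GαqKO, the fitted fold depended on the pseudocount and the tool, from -5.01 with a pseudocount of 5 to -6.66 with DESeq2 on recovered reads. Counted directly, 783 reads in 3 WT libraries stood against 5 reads in 2 GαqKO libraries, a ratio of 102 per library depth with an exact 95% interval of 43.4 to 314 that covers counting error only.

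Some markers of epithelial cells were also lower in GαqKO. Of 10 epithelial markers 4 were tested, and 3 were lower in GαqKO and none higher, against 34.1% lower and 31.8% higher of all genes. These 3 entered the test only through their WT values, which favoured a call of lower, so their count is not a test of the list. The fourth, Grhl2, had means of 9.151 in WT and 18.9 in GαqKO and did not pass (log2 fold change 1.13, limma adjusted p = 0.0539). The summed level of the 10 ran from 1053 to 1155 in WT and from 33.23 to 56.66 in GαqKO. Keratin 19 (Krt19) had means of 546.6 and 4.526, keratin 14 (Krt14) of 258 and 1.107, and E-cadherin (Cdh1) of 238.2 and 7.964 in WT and GαqKO, and each entered the test through its WT values. Of the untested markers, some were near 0 in both genotypes, with Epcam at 8.1 or less, Krt5 at 1.0 or less, Cldn4 at 3.1 or less and Esrp1 at 4.9 or less. Krt8 had 14.6, 30.1 and 7.1 in WT and at most 1.2 in GαqKO. Krt18 had 18.8, 15.5 and 9.2 in WT and at most 1.9 in GαqKO. Schwann cells also use Erbb3, but their regulator Sox10 was at 1.0 or less in every library. Of 6 Schwann cell markers 2 were tested and 1 was lower, against 34.1% lower of all genes. The sum of the 6 lay between 96.07 and 109.8 in WT and between 75.53 and 77.47 in GαqKO. Endothelial, leukocyte and muscle markers were low throughout, with sums of at most 26.59, 109.8 and 24.29. The part of the epithelial genes in the Erbb3 result was not tested, and in bulk RNA fewer cells of a type and less RNA per cell cannot be told apart.

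Egfr, the receptor of EGF itself and of most ligands described here, was lower in GαqKO by a smaller margin. The gene (ENSMUSG00000020122.17, chr11:16702198-16868158, forward strand) had normalized counts of 280.9, 279.8 and 306.4 in WT and of 171.8, 153.8 and 167.2 in GαqKO. Each WT library exceeded each GαqKO library. The means of 289 ± 15 and 164.3 ± 9.37 (SD, n = 3) gave a log2 fold change of -0.81 (SE 0.097, limma adjusted p = 5.79e-06). Of its exon bases, 66.0% lie inside the spans of antisense genes and 0.0% in their exons. The antisense transcript at its 3′ end, the lncRNA Eldr, moved the other way, from 257.1 ± 23.5 to 318.2 ± 13.8 normalized counts (log2 fold change 0.31, limma adjusted p = 0.0092).

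Erbb2, the partner receptor without a ligand, was also lower. The gene (ENSMUSG00000062312.6, chr11:98303203-98328542, forward strand) had normalized counts of 776.9, 740.2 and 849.9 in WT and of 527.7, 526.1 and 508.6 in GαqKO. The WT libraries were again all above the GαqKO libraries, which lay within a narrow range. The means were 789 ± 55.8 and 520.8 ± 10.6 (SD, n = 3), a log2 fold change of -0.60 (SE 0.065, limma adjusted p = 2.27e-06). The fourth receptor, Erbb4, was not a chosen gene and was too low to test, at 9.4, 1.9 and 15.3 in WT and 9.4, 6.9 and 1.0 in GαqKO.

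Divided by transcript length, Erbb2 was the most abundant receptor RNA in both genotypes. In normalized counts per kb of the canonical transcript, the WT order was Erbb2 with 155 ± 11, Erbb3 with 43.8 ± 3, Egfr with 28.3 ± 1.5 and Erbb4 with 0.713 ± 0.54 (SD, n = 3). In GαqKO it was Erbb2 with 102 ± 2.1, Egfr with 16.1 ± 0.92, Erbb3 with 0.574 ± 0.26 and Erbb4 with 0.465 ± 0.35, and the values of Erbb3 and Erbb4 overlapped. Erbb2 therefore made up 68 ± 1.5% of the summed receptor level in WT and 85.6 ± 0.69% in GαqKO. Erbb3 went from 19.3 ± 1.8% to 0.484 ± 0.23%. Egfr held 12.4 ± 0.32% and 13.5 ± 0.76%, with overlapping libraries. The summed level itself went from 227 ± 12 to 119 ± 2.2 normalized counts per kb. Of the exon bases of Egfr, 66.0% lie inside the spans of other genes, against 0.2% for Erbb2 and 0.0% for Erbb3. Whether this lowered the count of Egfr, and with it its rank and share, was not tested.

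Among the ligands, epiregulin (Ereg) had the largest rise. Epiregulin activates EGFR and ERBB4 and is made by fibroblasts and epithelia during wound repair. The gene (ENSMUSG00000029377.6, chr5:91222157-91241505, forward strand) had normalized counts of 303.9, 250.6 and 311.5 in WT and of 2964.5, 2927.6 and 2858.0 in GαqKO. All GαqKO libraries stood far above all WT libraries, and the spread within each genotype was small beside the gap. The mean rose 10.1-fold, from 288.6 ± 33.1 to 2917 ± 54.1 (SD, n = 3), with a log2 fold change of 3.34 (SE 0.074, limma adjusted p = 2.69e-13). Over all alternative settings the log2 fold change stayed between 3.24 and 3.40.

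Amphiregulin (Areg), a neighbour of Ereg on the same strand and also a ligand of EGFR, was higher in GαqKO as well but remained low. The gene (ENSMUSG00000029378.6, chr5:91287451-91296291) had normalized counts of 4.2, 4.9 and 8.1 in WT and of 21.6, 19.7 and 22.2 in GαqKO. The groups did not overlap, but Areg entered the test only through its GαqKO values. The means were 5.726 ± 2.12 and 21.14 ± 1.31 (SD, n = 3), a log2 fold change of 1.76 (SE 0.364, limma adjusted p = 7.50e-04). In recovered reads, 17 reads in 3 WT libraries stood against 40 in 2 GαqKO libraries, a ratio of 3.62 per library depth (exact 95% interval 2.01 to 6.81, counting error only). With a pseudocount of 5 the log2 fold change was 1.30.

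Heparin-binding EGF-like growth factor (Hbegf), which binds EGFR and ERBB4, rose to a lesser degree. The gene (ENSMUSG00000024486.7, chr18:36637980-36649677, reverse strand) had normalized counts of 969.0, 948.1 and 824.5 in WT and of 1315.6, 1365.5 and 1416.9 in GαqKO. No WT library reached the lowest GαqKO library. The means were 913.9 ± 78.1 and 1366 ± 50.7 (SD, n = 3), and the log2 fold change was 0.58 (SE 0.064, limma adjusted p = 2.43e-06).

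Transforming growth factor alpha (Tgfa), which binds EGFR alone, went the other way. The gene (ENSMUSG00000029999.15, chr6:86172041-86252728, forward strand) had normalized counts of 385.3, 375.9 and 375.6 in WT and of 98.6, 104.1 and 87.6 in GαqKO. The WT libraries were nearly equal, and each was more than any GαqKO library by a wide margin. The mean was 378.9 ± 5.51 in WT and 96.76 ± 8.38 in GαqKO (SD, n = 3), and the log2 fold change was -1.96 (SE 0.105, limma adjusted p = 1.42e-09).

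Nrg1, the neuregulin ligand of ERBB3 and ERBB4, was abundant in both genotypes and differed little. The gene (ENSMUSG00000062991.10, chr8:32303906-33374825, reverse strand) had normalized counts of 1277.0, 1352.2 and 1320.2 in WT and of 1201.0, 1126.2 and 1182.3 in GαqKO. The groups were close but did not overlap. The means were 1316 ± 37.7 and 1170 ± 38.9 (SD, n = 3), a log2 fold change of -0.17 (SE 0.050, limma adjusted p = 0.00818). This call was lost with DESeq2 on the recovered reads of 5 libraries, where the adjusted p was 0.072.

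**Figure D2:**
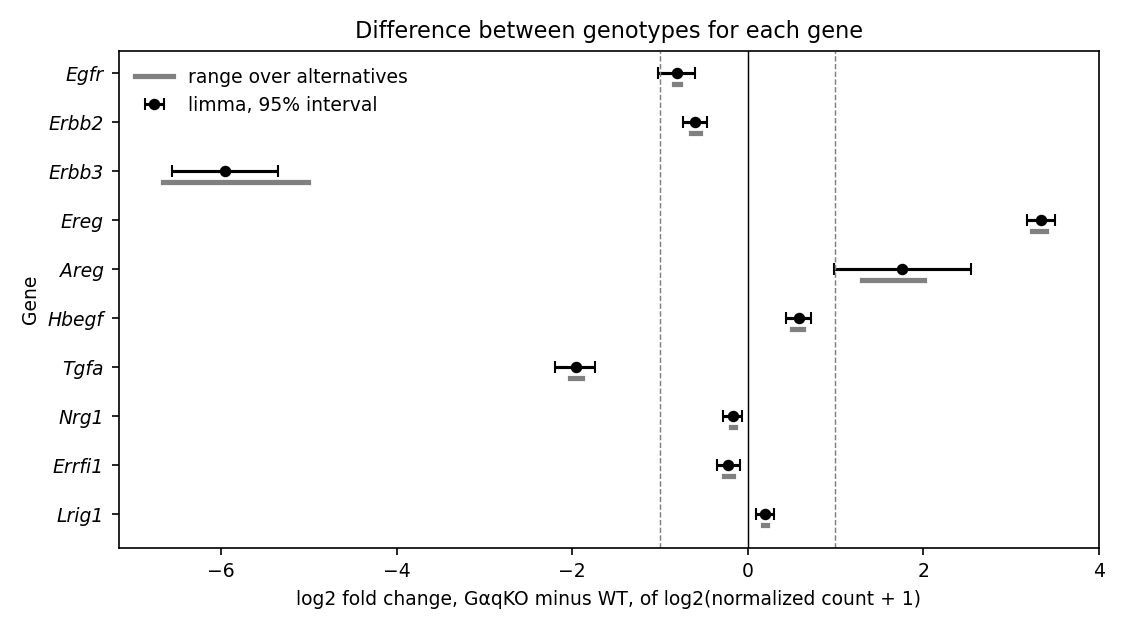
Log2 fold change (GαqKO minus WT, of log2(normalized count + 1)) of each gene with its limma 95% interval (black) and the range over the alternative settings (grey), and dashed lines at the fold threshold. The intervals of Ereg (3.18 to 3.50) and Tgfa (-2.19 to -1.74) lie beyond the dashed lines, that of Areg (0.98 to 2.55) reaches just inside, and those of Nrg1 (-0.28 to -0.06) and Lrig1 (0.09 to 0.30) lie near 0.

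Per length, the ligands of EGFR changed their order between the genotypes. The comparison covered the 7 ligands that bind EGFR, namely Ereg, Areg, Hbegf and Tgfa with Btc, Epgn and Egf. In WT, Hbegf had 384 ± 33 normalized counts per kb, Tgfa 80.4 ± 1.2 and Ereg 64.8 ± 7.4 (SD, n = 3). In GαqKO, Ereg had 655 ± 12, Hbegf 573 ± 21, Btc 25.7 ± 3.7, Tgfa 20.5 ± 1.8 and Areg 17.3 ± 1.1. Of these neighbours in order, the libraries of Btc and Tgfa overlapped in GαqKO and the others did not. Ereg thus held 11.8 ± 1.7% of the summed ligand level in WT and 50.1 ± 1.2% in GαqKO. Hbegf went from 69.7 ± 2.7% to 43.8 ± 1.4% although its own level was higher in GαqKO, and Tgfa from 14.6 ± 0.61% to 1.57 ± 0.14%. The summed level went from 550 ± 28 to 1309 ± 8.2 normalized counts per kb.

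These shares depend on the transcript length used for each gene. With the length of all annotated exons joined in place of the canonical transcript, the share of Ereg was 20.7% in WT and 66.8% in GαqKO, and in WT the level of Ereg (64.8 ± 7.4) came before that of Tgfa (55.4 ± 0.81), with overlapping libraries. The share of Hbegf was then 57% in WT and 27.3% in GαqKO. In GαqKO the order became Ereg with 655 ± 12, Hbegf with 267 ± 9.9, Areg with 17.3 ± 1.1, Btc with 16.4 ± 2.4 and Tgfa with 14.2 ± 1.2 normalized counts per kb, so the order of Areg, Btc and Tgfa rests on the length used. The share of Erbb2 among the receptors hardly moved, at 68.3% and 86.3%.

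**Figure D3:**
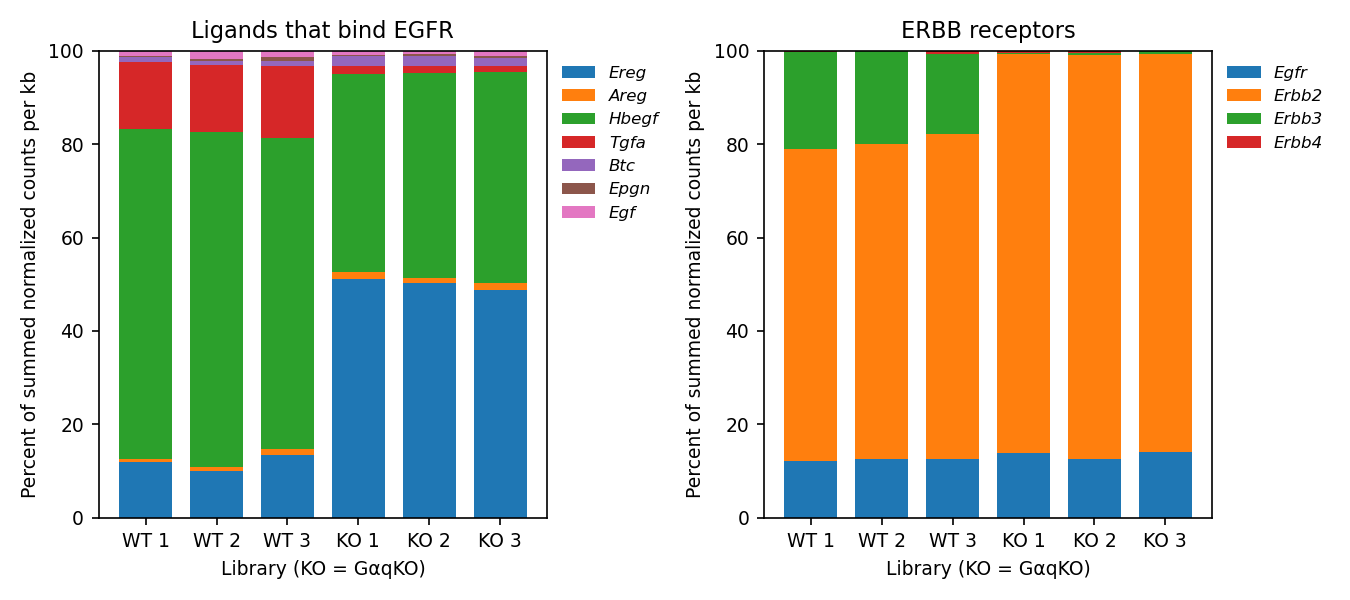
Stacked bars of the percent of the summed normalized counts per kb held by each of 7 EGFR ligands (left) and 4 ERBB receptors (right) in each library. Ereg takes 10.1% to 13.5% of the ligand level in the WT libraries and 48.8% to 51.2% in the GαqKO libraries, and Erbb3 takes 17.2% to 20.7% of the receptor level in WT and at most 0.714% in GαqKO.

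Both inhibitors differed by small amounts in opposite directions. Errfi1, an immediate early gene that EGFR signalling itself induces, had normalized counts of 1571.5, 1744.7 and 1590.9 in WT and of 1299.6, 1500.8 and 1405.8 in GαqKO (ENSMUSG00000028967.11, chr4:150938376-150955402, forward strand). The lowest WT library was just above the highest GαqKO library. The means were 1636 ± 94.9 and 1402 ± 101 (SD, n = 3), a log2 fold change of -0.22 (SE 0.061, limma adjusted p = 0.00522). Without a trend in the prior spread the limma adjusted p was 0.0508, which no longer passed.

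Lrig1 (ENSMUSG00000030029.15, chr6:94581510-94677242, reverse strand) had normalized counts of 1078.6, 1062.7 and 1091.1 in WT and of 1237.6, 1192.1 and 1278.9 in GαqKO. All GαqKO libraries were above the WT libraries, which differed little among themselves. The means were 1078 ± 14.2 and 1236 ± 43.4 (SD, n = 3), a log2 fold change of 0.20 (SE 0.049, limma adjusted p = 0.00305). Of its exon bases 23.3% lie in exons of other genes, chiefly the antisense Slc25a26, which went from 108.5 ± 22.4 to 201 ± 19.1. The strand setting of the counting was not given in the sources used here, so how reads were shared between them cannot be told.

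The Areg promoter is shown because Areg rose and its start is in the RefSeq promoter table, and the Egfr promoter because Egfr is the receptor of Areg and fell. The table (GRCm38.p6) held 6 of the 10 genes, Egfr, Erbb2, Areg, Tgfa, Errfi1 and Lrig1. The sequences are the 250 bases before the RefSeq start, each of which matched GRCm39 once, at chr5:91287208-91287457 for Areg and chr11:16701953-16702202 for Egfr, both on the forward strand. Capitals mark matches, on either strand, to the cyclic AMP response element (CRE) TGACGTCA, the SP1 motif GGGCGG and the TATA motif TATAAA.
Areg: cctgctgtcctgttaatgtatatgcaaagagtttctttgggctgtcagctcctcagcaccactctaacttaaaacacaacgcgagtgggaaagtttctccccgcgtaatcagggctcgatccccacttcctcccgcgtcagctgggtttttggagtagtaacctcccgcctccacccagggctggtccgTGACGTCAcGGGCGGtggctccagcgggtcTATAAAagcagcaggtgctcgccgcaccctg
Egfr: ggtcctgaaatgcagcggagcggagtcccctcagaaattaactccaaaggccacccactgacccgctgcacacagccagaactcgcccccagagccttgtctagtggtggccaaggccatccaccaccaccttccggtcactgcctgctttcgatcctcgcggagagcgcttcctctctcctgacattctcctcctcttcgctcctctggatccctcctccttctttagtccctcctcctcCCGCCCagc

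In Areg the CRE began 61 bases, the SP1 match 52 bases and the TATA match 31 bases before the start. In Egfr the only match was to SP1, 9 bases before the start. Neither window held the AP-1 motif TGANTCA or the TEAD motif GGAATG. Among the other genes in the table, Errfi1 also held a CRE, 51 bases before one of its starts. Of all 32851 promoters in the table, 1.55% held the CRE, 32.7% the SP1 motif, 12.4% the TATA motif, 6.75% the AP-1 motif and 12.6% the TEAD motif. A match is a description of the letters and does not show that a factor was bound.

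Ereg and Areg lie in a cluster of EGF-like ligand genes on chromosome 5, together with Epgn and Btc. Within 250 kb of either gene, 5 protein-coding genes were annotated beside them. Betacellulin (Btc), a ligand of EGFR and ERBB4 on the reverse strand at chr5:91505120-91550883, rose from 17.21 ± 1.47 to 74.56 ± 10.7 normalized counts (SD, n = 3, log2 fold change 2.05, limma adjusted p = 2.40e-06). Epigen (Epgn), between Mthfd2l and Ereg, was too low to test, with means of 4.375 and 8.363 and overlapping libraries. The chemokine gene Cxcl1 was higher, from 298.2 ± 27.3 to 405.1 ± 23.2 (log2 fold change 0.44, limma adjusted p = 5.54e-04). Mthfd2l, a gene of mitochondrial folate metabolism, was lower, from 349 ± 38.4 to 284.4 ± 19.3 (log2 fold change -0.29, limma adjusted p = 0.0173), and Cxcl2 was at 1.0 or less in every library.

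The lncRNA Gm19610 is antisense to Ereg, and all exon bases of Ereg (100.0%) lie inside its span, with 3.9% in its exons. It had normalized counts of 85.6, 87.4 and 87.5 in WT and of 233.8, 182.7 and 256.8 in GαqKO, a log2 fold change of 1.35 (limma adjusted p = 1.32e-06). Reads of the pair could be told apart only by strand or by exon. Their values moved the same way, and the rise of Ereg was the larger in both normalized counts and fold.

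**Figure D4:**
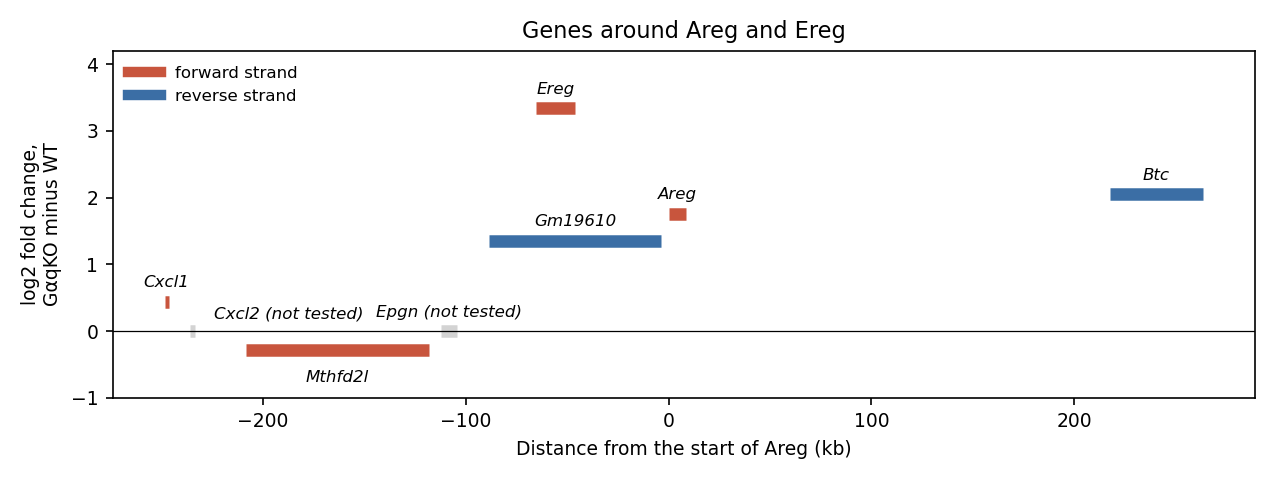
Log2 fold change (GαqKO minus WT) of Areg, Ereg, the protein-coding genes within 250 kb of either and the antisense lncRNA Gm19610, drawn at their distance in kb from the start of Areg, coloured by strand, with genes not tested in grey at 0. The 3 ligand genes that were tested, Ereg (3.34), Areg (1.76) and Btc (2.05), lie above 1, while Cxcl1 (0.44) and Mthfd2l (-0.29) lie nearer 0.

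The rest of the pathway was followed through 5 lists with 93 genes, of which 86 could be tested. Of these, 31 were higher, 43 were lower and 12 did not pass, and 9 were higher and 8 lower past both thresholds. Over all genes tested 31.8% were higher and 34.1% lower, and 10.2% and 10.5% past both, so the counts past both thresholds are near the background. Their median log2 fold change was -0.13. Among 7 other receptors and ligands, 4 were tested, 2 were higher and 1 lower. Besides Btc, the neuregulin gene Nrg2 passed both thresholds, with 47.18 ± 15.2 in WT and 4.785 ± 0.219 in GαqKO (log2 fold change -3.01, limma adjusted p = 2.24e-06), and it entered the test only through its WT values. Egf was higher by 0.58 (limma adjusted p = 0.0276), but its libraries overlapped.

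Of 11 genes of ligand release, 9 were tested, with 2 higher and 5 lower and a median of -0.14. Over all genes tested 31.8% were higher and 34.1% lower. Adam12, a metalloprotease that can release Hbegf, rose from 112.1 ± 15.1 to 408.1 ± 25.1 (log2 fold change 1.86, limma adjusted p = 6.28e-09). Adam19, which can release neuregulins, went from 84.19 ± 8.26 to 0.9, 8.1 and 0.0 in the GαqKO libraries (log2 fold change -5.03, limma adjusted p = 6.14e-06), and it entered the test only through its WT values. The chief releasing enzymes were named after their values were seen. Adam17, the main protease for Tgfa, Areg, Ereg and Hbegf, differed by -0.14 (limma adjusted p = 0.0414), and Adam10, the main protease for Btc and Egf, by -0.56 (limma adjusted p = 6.33e-08).

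Of 31 adaptor and early signalling genes 30 were tested, 6 were higher, 19 were lower and 5 did not pass, against 31.8% higher and 34.1% lower of all genes. The median was -0.23. The genes past both thresholds encode regulatory subunits of PI3-kinase, the enzyme that ERBB3 recruits. Pik3r1 went from 1049 ± 71.8 to 505.4 ± 17 and Pik3r3 from 501.7 ± 22.4 to 243 ± 21.4, each with a log2 fold change of -1.05 (limma adjusted p = 5.40e-09 and 1.10e-07).

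Of 24 other inhibitors, ubiquitin ligases and receptor traffic genes, 23 were tested, 5 were higher, 14 were lower and 4 did not pass, against 31.8% higher and 34.1% lower of all genes. The median was -0.47. Receptor tyrosine phosphatases were among the falls past both thresholds. Ptprk, which removes phosphate from EGFR, went from 998.4 ± 51.6 to 284.4 ± 12.1 (log2 fold change -1.81, limma adjusted p = 3.43e-11). Ptprj went from 177.9 ± 17 to 31.17 ± 1.72 (log2 fold change -2.47, limma adjusted p = 1.07e-08). The tyrosine phosphatase Ptpn1 of the same list rose, from 1317 ± 24.1 to 2333 ± 60.3 (log2 fold change 0.82, limma adjusted p = 1.61e-09). Sh3kbp1, a CBL partner in EGFR endocytosis, was higher, at 1621 ± 17.3 and 3411 ± 161 (log2 fold change 1.07, limma adjusted p = 1.43e-10). In the same list Cd2ap, Cbl and Cblb were lower, with log2 fold changes of -0.83, -0.47 and -0.93 (limma adjusted p = 1.24e-08, 8.34e-04 and 5.58e-06).

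All 20 genes that ERK signalling is known to induce were tested and passed, with 16 higher, 4 lower and a median of 0.43, against 31.8% higher and 34.1% lower of all genes. The PEA3 transcription factors rose together. Etv1 went from 14.07 ± 4.16 to 485.7 ± 31.6 (log2 fold change 5.05, limma adjusted p = 5.00e-11). Etv4 went from 865.8 ± 22 to 3067 ± 89.1 and Etv5 from 131.4 ± 3.76 to 548.4 ± 50.7. Spry4, a feedback inhibitor of RAS signalling, rose from 51.52 ± 4.09 to 361.5 ± 38.7, cyclin D1 (Ccnd1) from 1834 ± 37 to 4639 ± 166 and the cytokine Il11 from 31.8 ± 11.3 to 71.72 ± 6.82. The falls were Egr1 with a log2 fold change of -1.19, Spry1 with -1.28, Dusp5 with -0.94 and Dusp6 with -0.52, so the feedback genes did not all move one way. These genes also respond to other receptors that act through ERK, and the part of EGF receptor ligands in their levels was not tested.

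**Figure D5:**
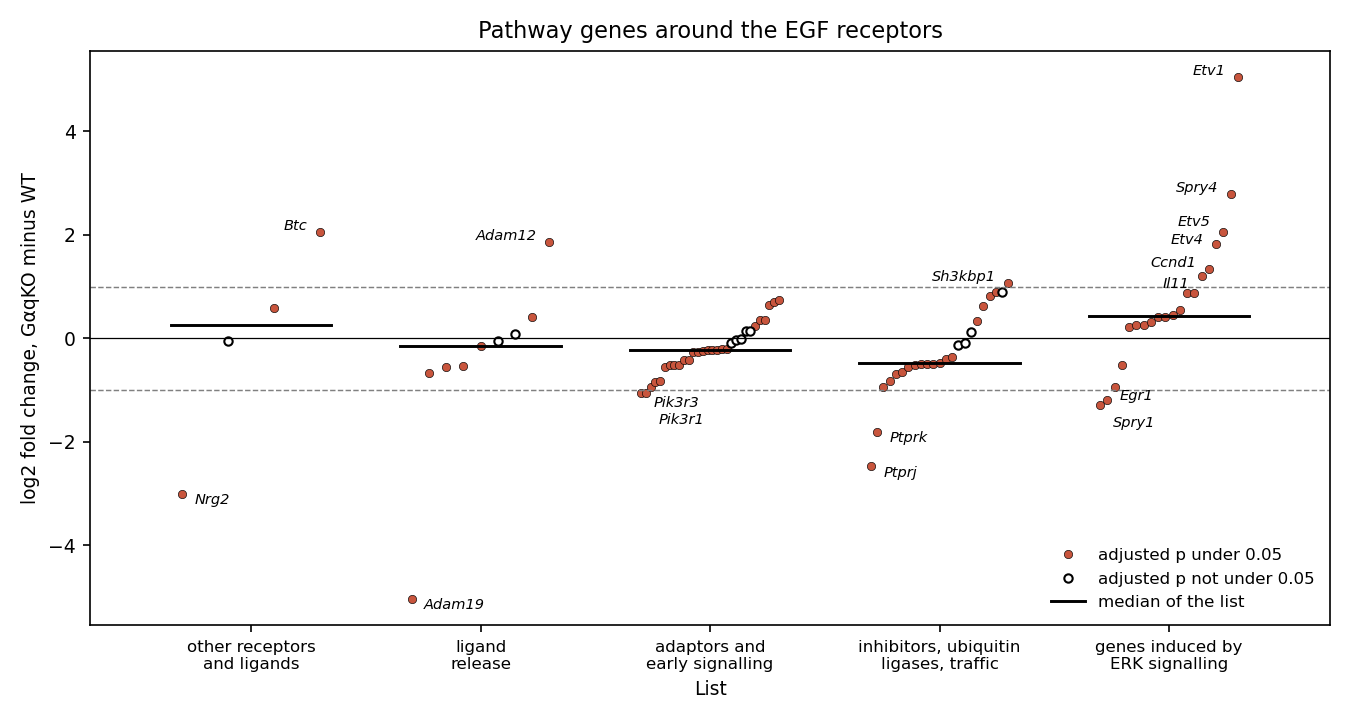
Log2 fold change (GαqKO minus WT) of the 86 tested pathway genes in 5 lists, each point a gene, filled where the limma adjusted p was under 0.05, with the list medians as bars and dashed lines at the fold threshold. The genes induced by ERK signalling have a median of 0.43 and reach 5.05 (Etv1), and the inhibitors, ubiquitin ligases and traffic genes have a median of -0.47 and reach -2.47 (Ptprj).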

How the data were processed

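The authors made poly-A selected, stranded libraries from 3 WT and 3 GαqKO MEF samples, sequenced them as paired ends, aligned the reads with Rbowtie2 to GRCm39, counted them per gene with featureCounts of Rsubread on GENCODE, and used DESeq2 in R. Tool versions and the strand setting were not given in the sources used here. The deposited table holds normalized values (a signal), that is, each library's gene counts after division by its size factor.

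Identifiers were matched to GENCODE release 39, which named 56310 of 56953 genes (98.9%). The genes and lists described were chosen with earlier results of these data known. Genes named beyond the 10 are the pathway genes past both thresholds, those annotated near Areg and Ereg, Gnaq and Gna11. The cell type markers named come from 6 lists, with all tested fibroblast and epithelial markers among them. The untested markers, 4 Y-linked genes, Egf, Dusp5, Dusp6, Adam10, Adam17, Ptpn1, Cd2ap, Cbl, Cblb, Erbb4, Timp3 and overlapping genes were named after their values were seen. The main test was limma 3.58.1 in R 4.3.3 on log2(normalized count + 1) for genes that reached 10 normalized counts in 3 or more libraries, with a trend in the prior spread, all 6 libraries in the fit, two-sided, and Benjamini-Hochberg adjustment over all 14096 genes. In 5 libraries 100% of the values were whole multiples of a step (tolerance 0.05), so reads were recovered there. The reads of GαqKO replicate 3 were not used. On those reads edgeR 4.0.16 (quasi-likelihood) and DESeq2 1.42.0 were run as alternatives on 14384 genes, with a common biological coefficient of variation of 5.21%. Read ratios of low genes were given exact 95% intervals. The limma fit, tested on simulated data for the WT and GαqKO comparison over 13990 genes, recovered 200 of 200 changed genes with 7 false calls. The changed genes all differed 2-fold and none was low, and far fewer genes were changed than passed here. The simulation thus does not cover low genes such as Areg or small differences such as that of Nrg1. Replicates differed by more than counting noise (chi-square per gene 2.44 to 5.5). The columns of the table all belong to the 6 libraries.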

Additional observations from a re-analysis of the deposited data

How the results depend on the processing

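Over 16 alternatives, the 10 genes gave 158 values, of which 156 kept their direction and their side of the threshold, 0 were reversed and 2 lost the call (Nrg1 with DESeq2, Errfi1 without the trend). Erbb3 and Areg could not be tested when at least 10 normalized counts were asked of every library. That filter left 1 gene higher and 1 lower past both thresholds in place of 2 and 2, and 831 higher and 765 lower of all genes in place of 1432 and 1486, since fewer genes were tested. When single libraries were left out, the 10 genes gave 4 higher and 6 lower in every fit, and 2 and 2 past both thresholds. The pathway genes gave 29 to 31 higher and 40 to 42 lower, with 8 to 10 higher and 8 to 10 lower past both. All genes gave 4142 to 4452 higher and 4475 to 4661 lower, with 1426 to 1545 and 1492 to 1603 past both. Same-numbered WT and GαqKO libraries did not deviate together (correlations -0.05, -0.15 and -0.06), so the numbers do not pair them. With a replicate block, 4 of the 10 genes were higher and 6 lower, 31 and 42 of the pathway genes, and 4324 and 4638 of all genes. With all exons joined for the length, chosen after seeing the data, the ligand share of Ereg was 20.7% in WT and 66.8% in GαqKO, and that of Hbegf 57% and 27.3%. Scaling by TMM or to equal totals moved the median of all genes by less than 0.1. The depth limits Areg in WT and Erbb3 in GαqKO, which rest on 17 and 5 recovered reads.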

Other observations

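The table lists many genes at 0 that lie inside other genes. Of 9686 protein-coding genes whose span overlaps no other gene of the table, 29% were listed at 0 in every library. Of 929 that lie wholly inside the span of a gene on the other strand the share was 72.9%, and of 430 inside a gene on the same strand it was 89.3%. Of 10619 that overlap another gene in part it was 6.36%. Timp3, an inhibitor of the proteases that release EGF receptor ligands, lies inside a gene on the other strand and was listed at 0 in all 6 libraries, as was the short second row named Nrg1. Ereg lies wholly inside the span of Gm19610 and was nevertheless abundant in GαqKO. The reason for these shares was not tested.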
